A study of Mus musculus with 28 samples.

Results

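Abl1 and Nup214 are neighbouring genes on mouse chromosome 2 that were gained together, at high level and in a short interval, in 1 of 24 p53-mutant tumours. The members are these 2 genes, of 20665 autosomal protein-coding genes in the RefSeq annotation of GRCm38.p6. They were chosen by their log2 copy ratio in that tumour, RP thymic lymphoma 6, so their copy number is described here and not tested. Abl1 (gene ID 11350) spans positions 31688244 to 31807093 and Nup214 (gene ID 227720) spans 31974408 to 32053975, with 167314 bases between them.

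The copy number of each tumour was measured by exome sequencing, which samples the genome at captured protein-coding targets and not between them. The animals carried a p53 allele opposite a null allele in the germline, genotype p53 AD/- for the dimeric form of the protein and p53 RP/- for the monomeric form. All shared a mixed BALB/C and C57BL6 background, and no group had wild-type p53. Thymic lymphomas came from 7 AD and 7 RP animals and sarcomas from 5 AD and 5 RP animals, all collected at end point; ages are not in the labels used here. Ear DNA labelled as a normal control was sequenced for 4 of the animals and is not analysed here. Each tumour had 59 to 517 segments over 211948 to 212450 markers, the capture targets or windows behind a segment. A value is the log2 of tumour dose over that of a comparison DNA, so 0 means equal dose, and a gene was called gained at 0.3 or above and lost at -0.3 or below.

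Abl1 encodes a non-receptor tyrosine kinase that relays signals to the cytoskeleton, to proliferation and to the DNA damage response, and is best known as the kinase part of the BCR-ABL1 fusion. Nup214 encodes a nucleoporin on the cytoplasmic face of the nuclear pore, where it takes part in the export of RNA and protein. In human T-cell acute lymphoblastic leukaemia the same neighbours are amplified together in some patients, as circles of DNA on which part of NUP214 is joined to ABL1, which leaves a constantly active kinase. Thymic lymphomas of p53-deficient mice are T-cell tumours too.

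The edge of the gained interval lay inside Abl1, in a stretch without markers. The first gained position in the segment table, 31760036, lay within a 300-base window around a RefSeq transcript start of Abl1, chr2:31759923-31760222 on the plus strand of GRCm38.p6, which is shown because it holds the first position measured as gained; the edge itself may lie anywhere in the stretch before it. Lower case marks the 113 bases before the first gained position and capitals the 187 bases from it onwards. The window around the Nup214 transcript start, chr2:31974200-31974499 on the same strand, is in capitals throughout because it lay wholly within the gain. Both genes matched the RefSeq promoter table, from which the sequences are taken.
Abl1 start window: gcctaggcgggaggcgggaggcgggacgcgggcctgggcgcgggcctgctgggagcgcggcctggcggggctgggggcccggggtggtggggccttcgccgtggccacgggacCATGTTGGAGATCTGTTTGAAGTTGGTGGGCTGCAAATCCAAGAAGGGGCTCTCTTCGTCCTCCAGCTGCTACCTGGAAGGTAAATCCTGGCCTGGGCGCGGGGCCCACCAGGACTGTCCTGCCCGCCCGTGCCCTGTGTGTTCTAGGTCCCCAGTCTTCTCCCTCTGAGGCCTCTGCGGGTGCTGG
Nup214 start window: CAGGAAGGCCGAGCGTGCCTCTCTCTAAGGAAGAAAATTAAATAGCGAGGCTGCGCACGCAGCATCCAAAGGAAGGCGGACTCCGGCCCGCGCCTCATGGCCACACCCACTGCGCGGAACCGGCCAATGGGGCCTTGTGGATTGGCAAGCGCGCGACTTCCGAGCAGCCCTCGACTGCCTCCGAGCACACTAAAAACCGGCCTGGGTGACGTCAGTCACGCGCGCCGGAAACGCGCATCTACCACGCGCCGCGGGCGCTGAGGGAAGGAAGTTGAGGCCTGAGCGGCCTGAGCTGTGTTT

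The position 31760036 fell between the 2 transcript starts of Abl1 in the RefSeq promoter table, 31759939 and 31760173. The letters ATG stood directly after it, at 31760037 to 31760039. Whether the segment tables count positions from 0 or from 1 is not stated, so this placement of the first gained position holds to within 1 base. It does not place the edge. The Abl1 window was 70.0% G or C and the Nup214 window 64.0%, against a median of 52.7% over the 32851 windows of the table.

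**Figure D1:**
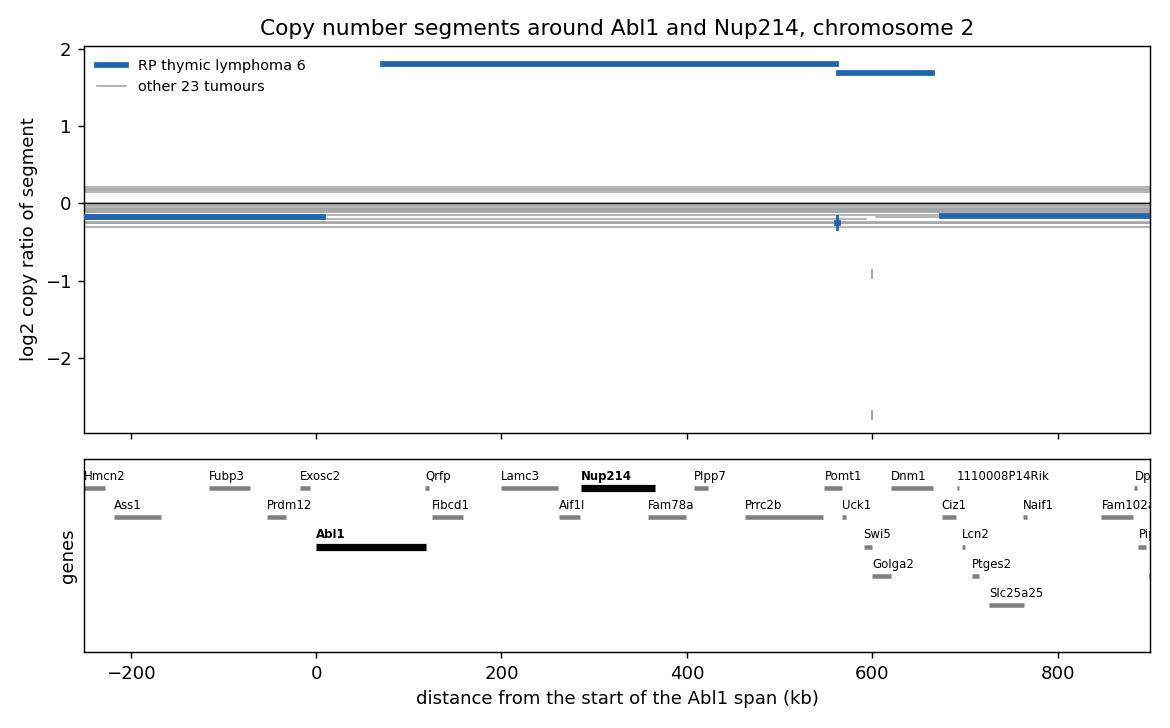
Segments around Abl1 and Nup214, as log2 copy ratio against distance from the start of the Abl1 span in kb, with RP thymic lymphoma 6 in thick blue lines and the other 23 tumours in thin grey lines; short marks are segments under 10 kb. The lower panel shows the spans of protein-coding genes. In RP thymic lymphoma 6 the segments at 1.81 and 1.68 stand above flanks at -0.17, and no other tumour has a gained segment there.

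The tumour with the gain was RP thymic lymphoma 6, and the step was sharp on both sides. The chromosome stood at a log2 of -0.17 over 3483 markers up to position 31695748. It stood at 1.81 over 142 markers from 31760036 to 32248614, a length of 488.6 kb, and at 1.68 over 76 markers from 32251909 to 32353048, a length of 101.1 kb. It returned to -0.17 over 772 markers from 32363809. On the linear scale the gained segments had ratios of 3.51 and 3.21. Against the flank before them they were 3.95 and 3.62 times as high. From end to end the gain measured 593.0 kb with 218 gained markers.

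Between the gained segments lay 3 markers at -0.25, from 32250438 to 32251261, inside Pomt1, a mannosyltransferase gene. That level is close to the flanks and not to the gain, and with 3 markers its error cannot be given. None of the other 23 tumours had a segment end at either side of it.

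The proximal edge of the gain lay in a gap of 64.3 kb without markers between 31695748 and 31760036, and the whole gap lay inside the Abl1 span. Of that span, 6.31% belonged to the ungained flank, 54.1% to no segment and 39.6% to the gained segment. The gained share is the downstream part, from 71.8 kb after the start of the gene to its end. The overlap-weighted value of Abl1, 1.54, mixes flank and gain, and the segment that covers most of the measured gene stood at 1.81. Abl1 had a segment end inside it in this tumour and in 0 of the other 23.

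Nup214 had no segment end inside it in any of the 24 tumours. In RP thymic lymphoma 6 its whole span lay at 1.81. The distal edge of the gain lay 299.1 kb beyond the end of Nup214, in a gap of 10.8 kb from 32353048 to 32363809 that holds the last bases of Dnm1 and the first of Ciz1. The human fusion described above breaks inside NUP214, and no such edge was present in these segments. Segments carry no reads across a junction, so whether any 2 ends were joined was not tested.

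The gain held all or part of 14 protein-coding genes, and all of them but Abl1, Pomt1 and Dnm1 lay wholly in gained segments. Qrfp, a neuropeptide gene, Fibcd1, a chitin receptor gene, Lamc3, a laminin chain gene, and Aif1l, which encodes an actin-binding protein, start between the starts of Abl1 and Nup214 and stood at 1.81. Fam78a, which overlaps the end of Nup214, and beyond it Plpp7, which encodes a nuclear envelope protein, and Prrc2b, which encodes an RNA-binding protein, were at the same level. Pomt1 averaged 1.68 with 82.1% of its span in gained segments. Uck1, a uridine-cytidine kinase gene, Swi5, a recombination repair gene, Golga2, which encodes a Golgi matrix protein, and Dnm1, the dynamin 1 gene, stood at 1.68. The nearest genes outside were Exosc2, an RNA exosome subunit gene, at -0.17 on the proximal side, and Ciz1, whose product binds the p53 target p21, at -0.17 on the distal side.

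The gain also held 3 microRNA genes, Mir7674 within the Nup214 span at 1.81, and Mir199b and Gm23363, which holds miR-3154, within the Dnm1 span at 1.68. All 3 matched the RefSeq miRNA table (GRCm38.p6). Their mature forms there are shown because they were gained along with both genes, with the seed, bases 2 to 8, in capitals; no 2 share a seed. No RNA was measured, so these are DNA doses only.
mmu-miR-7674-5p: uGAGGUGUgggcagcaugaggacu
mmu-miR-7674-3p: uCCCAUUCucaccgcacccag
mmu-miR-3154: cAGAAGGGgagucgggagcgga
mmu-miR-199b-3p: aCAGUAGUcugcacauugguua

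In the other 23 tumours 1 segment of at least 1513 markers and 5.9 Mb covered both genes, so Abl1 and Nup214 had the same value in each. In AD thymic lymphomas the log2 copy ratio of both genes was -0.26 at the lowest, -0.20 at the median and 0.17 at the highest. In RP thymic lymphomas Abl1 was -0.30 at the lowest, 0.15 at the median and 1.54 at the highest, and Nup214 was -0.30, 0.15 and 1.81. The genotypes overlapped, and RP thymic lymphoma 6 stood far above every other tumour.

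Abl1 averaged -0.14 ± 0.15 in AD thymic lymphomas and 0.24 ± 0.60 in RP thymic lymphomas (SD, n = 7 each). Without RP thymic lymphoma 6 the RP mean was 0.02 ± 0.20 (SD, n = 6). Nup214 averaged -0.14 ± 0.15 in AD and 0.28 ± 0.70 in RP thymic lymphomas (SD, n = 7 each). RP thymic lymphoma 6 thus set both the RP mean and its spread. Apart from it, RP thymic lymphomas 1, 2 and 3, at 0.21, 0.18 and 0.15, and AD thymic lymphoma 4, at 0.17, were the thymic lymphomas above 0.

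The sarcomas stayed close to 0. In AD sarcomas 1 to 5 both genes stood at -0.06, -0.02, -0.15, 0.01 and 0. In RP sarcomas 1 to 5 they stood at -0.02, -0.07, -0.09, -0.11 and -0.03. The genotypes overlapped, and AD sarcoma 3 was the lowest. The means were -0.05 ± 0.07 in AD and -0.06 ± 0.04 in RP sarcomas (SD, n = 5 each).

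**Figure D2:**
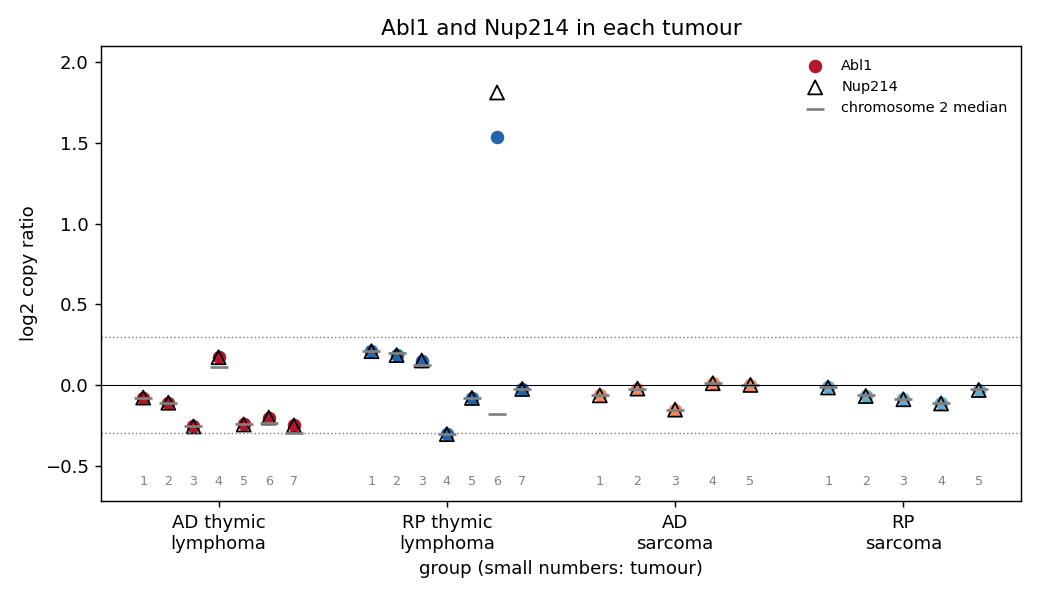
Log2 copy ratio of Abl1 (filled circles) and Nup214 (open triangles) in each of the 24 tumours by group, with the median of chromosome 2 as a grey dash and the cutoffs of 0.3 and -0.3 as dotted lines. In RP thymic lymphoma 6 the genes stand at 1.54 and 1.81 over a chromosome 2 median of -0.18. In the others both lie on or near that median, which the segment over both genes often sets.

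Gain was called in 1 tumour for each gene, RP thymic lymphoma 6, where 11.2% of all genes were called gained; the next highest tumour, RP thymic lymphoma 1, stood at 0.21. Loss was called in 1 tumour, RP thymic lymphoma 4, at -0.30, where 25.6% of all genes were called lost. The next lowest, AD thymic lymphoma 3, stood at -0.26, so this call rests on a small margin. The length-weighted median of chromosome 2 in RP thymic lymphoma 4 was also -0.30, and one segment from 24935027 to 97629030 carried it.

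Measured against the chromosome 2 median of the same tumour, Nup214 stood at 1.99 and Abl1 at 1.72 in RP thymic lymphoma 6. Both genes lay between 0 and 0.06 above that median in AD thymic lymphomas, and in the other 6 RP thymic lymphomas the distance ran from -0.01 to 0.03. In AD sarcomas it was at most 0.0012 and in RP sarcomas it ran from -0.0085 to 0. Where 1 long segment covers both genes and sets that median, a distance of 0 is fixed in advance. Outside RP thymic lymphoma 6 the small distances are therefore a description only.

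Within 5 Mb of the genes, 21 of the 24 tumours had no segment end at all. Apart from RP thymic lymphoma 6, ends were present in AD thymic lymphomas 6 and 7, where they bounded short losses, not all of which are given here. In AD thymic lymphoma 7 the chromosome also stepped to a segment of 2741 markers at -0.32, which reached to 72971547, and 64 of the 190 protein-coding genes within 5 Mb were called lost in that tumour (33.7%, against 24.8% of all genes). At the border of Swi5 and Golga2 AD thymic lymphoma 6 had 5 markers at -0.91, from 32287596 to 32288312, and AD thymic lymphoma 7 had 3 markers at -2.74, from 32288030 to 32288312. Autosomal losses no longer than 50 kb and with 10 markers or fewer numbered 93 and 169 in these tumours and 11 to 37 in the other 12 thymic lymphomas, and the part of that in these segments was not tested. The 3 markers in Pomt1 and the edges of the gain shared no position with them.

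Among focal gained segments of the whole series those of the interval were of middle height. Autosomal segments at a log2 of 1 or above, with at least 20 markers and under 5 Mb, numbered 44 in 15 tumours. AD thymic lymphomas held 20 of them in 4 tumours, RP thymic lymphomas 6 in 4, AD sarcomas 9 in 4 and RP sarcomas 9 in 3. These are not all separate events, as the 44 had 38 distinct starts. Distinct starts merge only segments shared between tumours. Several segments on 1 chromosome of 1 tumour still count separately, as in this interval, on chromosome 12 in AD thymic lymphoma 6 and on chromosome 16 in RP sarcoma 5. Ranks and counts by group are therefore of segments and not of events. AD sarcomas 1, 3 and 4 shared the segment on chromosome 2 from 176706853 to 178032800. A short segment on chromosome 9 from 3000921 recurred in RP thymic lymphomas 1 and 4, RP sarcoma 1 and AD sarcomas 1 and 5. The segments with Abl1 and Nup214 and with Dnm1 ranked 15 and 18, and were the highest in RP thymic lymphomas. The highest elsewhere stood at 6.33 in AD thymic lymphoma 5, 3.01 in RP sarcoma 5 and 1.43 in AD sarcoma 1.

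**Figure D3:**
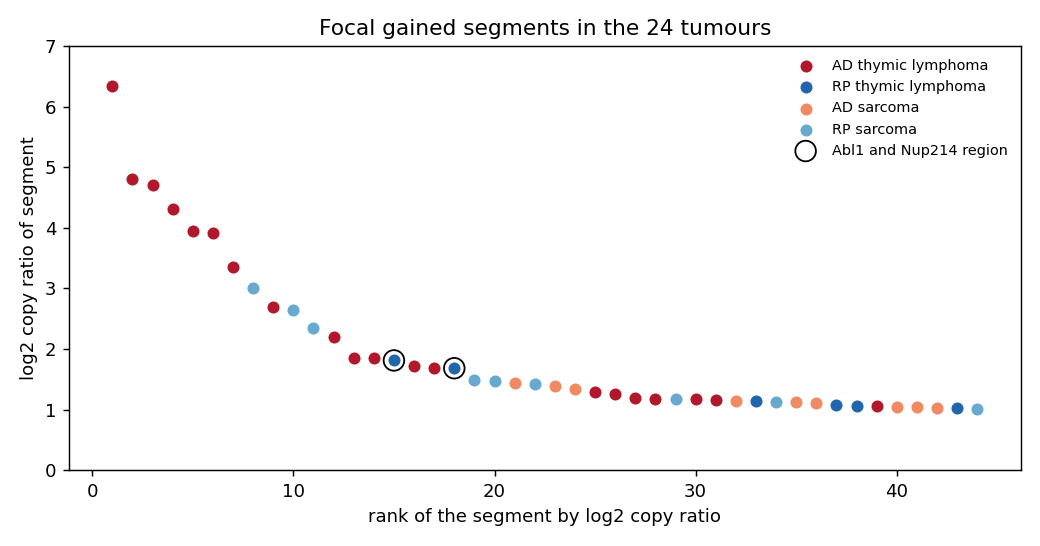
Focal gained segments of all 24 tumours in order of log2 copy ratio, coloured by group, with the 2 segments of the Abl1 and Nup214 region circled. The circled segments rank 15 and 18 of 44, at 1.81 and 1.68.

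In RP thymic lymphoma 6 itself these were the only segments of that kind. Of the 20665 genes, 15 stood at 1 or above in this tumour, and 14 of them were the genes of the interval. The other was Sfxn1, a mitochondrial serine transporter gene on chromosome 13, at 2.0 in a segment of 11 markers. Sfxn1 varied widely in the other 23 tumours too, from -0.88 to 0.996. The rest of the genome showed broad shifts, with chromosome means of 0.38 for chromosome 9, 0.30 for chromosome 11, -0.36 for chromosome 18, -0.54 for chromosome 19 and -0.59 for chromosome 13. The T-cell receptor beta region, chromosome 6 from 41000001 to 42000000, which T cells delete in part when they rearrange it, stood at -0.86 in this tumour. It ranged from -1.86 to -0.08 in AD and from -1.96 to -0.79 in RP thymic lymphomas, and from -0.16 to 0.005 in sarcomas; the value of AD thymic lymphoma 3, -0.08, lay within the range of the sarcomas.

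The genes outside chromosome 2 with the most similar pattern over the 24 tumours were Anp32a (Pearson r = 0.69 with Abl1), Stoml1 (r = 0.66), both on chromosome 9, and Sfxn1 (r = 0.65). Without RP thymic lymphoma 6 the same correlations over 23 tumours were 0.19, 0.07 and 0.19. The similarity therefore rests on RP thymic lymphoma 6, in which Anp32a and Stoml1 stood at 0.39. These correlations are a description, and genes of 1 tumour share its library.

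Chromosome 2 beyond 5 Mb of the genes is given as a description, with no test, because in most tumours the segment that gave both genes their value reached into it. It averaged a log2 of -0.15 ± 0.14 over AD thymic lymphomas and -0.01 ± 0.19 over RP thymic lymphomas (SD, n = 7 each), above 0 in 1 AD and 3 RP tumours. The difference was -0.14. In sarcomas the means were -0.04 ± 0.05 in AD and -0.05 ± 0.04 in RP (SD, n = 5 each), a difference of 0.02.

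Thymic lymphomas of both genotypes averaged -0.08 ± 0.18 (SD, n = 14) and sarcomas -0.04 ± 0.04 (SD, n = 10) over the same part of chromosome 2. The difference was -0.04, and 0.05 with each tumour centred on its autosomal median. In RP thymic lymphoma 6 the chromosome outside the interval averaged -0.19, inside the range of the other thymic lymphomas.

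**Figure D4:**
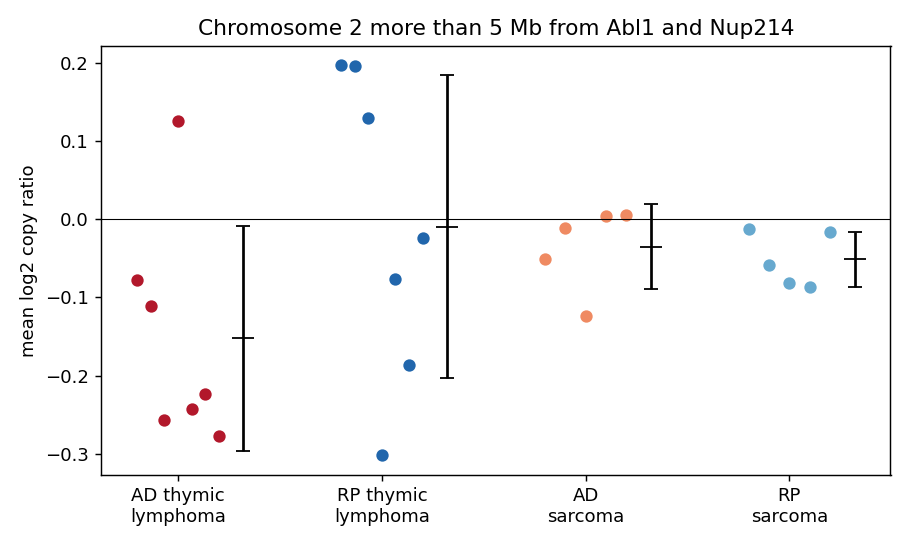
Length-weighted mean log2 copy ratio of chromosome 2 more than 5 Mb from both genes, with 1 point per tumour and the mean ± SD of each group as a bar. The groups overlap, with means of -0.15 in AD thymic lymphomas, -0.01 in RP thymic lymphomas, -0.04 in AD sarcomas and -0.05 in RP sarcomas.

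The partners of both genes were followed as lists. Between AD and RP tumours 0 of 28 other genes of Abl kinase signalling, 0 of 10 of T-cell receptor signalling, 0 of 17 fusion partners and co-lesions of the human leukaemia and 0 of 30 of the nuclear pore passed the exact permutation test over all 20665 genes, in thymic lymphomas or in sarcomas. Over all genes 0.0% passed in each comparison by exact permutation test and 0 with limma. At an unadjusted p under 0.05, 1766 genes in thymic lymphomas and 1047 in sarcomas were below that level by exact permutation test, and 2067 and 2867 with limma. In thymic lymphomas the median difference between AD and RP was 0.04 for the Abl list and 0.05 for the pore list, against 0.04 for all genes. It was 0.04 for the partners and co-lesions and -0.01 for the 10 genes of T-cell receptor signalling. With 5 against 5 sarcomas the smallest exact permutation p is 0.00794, and with 7 against 7 thymic lymphomas it is 0.000583. At either p a single gene could not pass adjustment over all 20665 genes. The counts of 0 by permutation test therefore do not show that the genotypes were alike. The smallest adjusted permutation p over all genes was 0.557 in sarcomas and 0.469 in thymic lymphomas.

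Crkl, which encodes an adaptor that Abl kinases phosphorylate, was the other Abl list gene with a log2 of 1 or above in any tumour. It stood at 3.01 in RP sarcoma 5 and at 1.42 in RP sarcoma 3, in segments of 160 and 87 markers on chromosome 16. Crkl was also called gained in 1 AD thymic lymphoma, at 0.39. RP thymic lymphoma 6, the only tumour with Abl1 called gained, had Crkl at 0.09, and 11.2% of all genes were called gained in it. With Abl1 gained in 1 tumour, whether the gains of Abl1 and Crkl occur together was not tested.

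In RP thymic lymphoma 6, of 29 Abl signalling genes with Abl1 included, 6 were called gained. Abl1 was chosen for its gain in this tumour, so its call was fixed in advance. The other gained genes lay between 0.31 and 0.39. Of them, Cbl, a ubiquitin ligase gene, lay on chromosome 9. The adaptor genes Crk and Grb2 and the transcription factor genes Stat5a and Stat5b lay on chromosome 11. Gains took 11.2% and losses 10.5% of all genes in this tumour. The kinase gene Jak2 at -0.54, the Ras effector gene Rin1 at -0.57 and the phosphatase gene Ptpn2 at -0.36 were called lost. Of the 17 partners and co-lesions, 0 were gained and 3 were lost, among them Dek at -0.59 and Tlx1 at -0.54. Of 31 pore genes with Nup214 included, 4 were gained and 3 were lost. The call of Nup214, chosen for its gain in this tumour, was also fixed in advance. Nup88 and Nup85, on chromosome 11, stood at 0.31, and Nup153, Nxf1, which encodes an mRNA export factor, and Seh1l at -0.59, -0.57 and -0.36. Nup43, a nucleoporin gene at 0.35, lay on chromosome 10, whose mean was -0.0087. Notch1 and Set, on chromosome 2 with Abl1, stood at -0.17, outside the gained interval. The cell cycle inhibitor gene Cdkn2a, often deleted in the human disease, stood at 0.15.

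Thymic lymphomas differed from sarcomas in many list genes, as they did in 39.8% of all genes. Marker totals differed between the tumour types without overlap, so processing and tumour type cannot be told apart here. In the Abl list 1 of 28 genes was higher and 10 lower, where 5.69% of all genes were higher and 34.1% lower (permutation test within genotype, adjusted over all genes). With each tumour centred on its autosomal median the Abl list had 1 higher and 4 lower, where 7.04% of all genes were higher and 14.8% lower. The median difference of the Abl list was -0.05 against -0.04 over all genes, and 0.04 against 0.04 with centring. Lyn, a Src family kinase gene on chromosome 4, was higher, at 0.25 ± 0.16 in thymic lymphomas and -0.05 ± 0.06 in sarcomas. Cttn, the cortactin gene, and the adaptor gene Gab2 on chromosome 7 were lower, at -0.26 ± 0.16 and -0.24 ± 0.12 in thymic lymphomas and at 0.11 ± 0.13 and 0.10 ± 0.12 in sarcomas, and so was the phosphatase gene Ptpn6 on chromosome 6 (-0.33 ± 0.21 and -0.03 ± 0.05; SD, n = 14 and 10 for each gene). Crkl passed as lower by 0.59 (permutation test, adjusted p = 0.0265), but did not pass with centring (difference -0.50, adjusted p = 0.12), and the difference was -0.16 without RP sarcomas 3 and 5 (adjusted p = 0.369), an alternative chosen after seeing the data.

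In the pore list 1 of 30 was higher and 11 lower, and with centring 1 and 4. Over all genes 5.69% were higher and 34.1% lower, and with centring 7.04% and 14.8%. These shares are the measure for each list below too, and the genes named are examples, not a result about a list. Ndc1, which encodes a membrane nucleoporin, on chromosome 4 was at 0.26 ± 0.15 in thymic lymphomas and -0.03 ± 0.06 in sarcomas. The nucleoporin genes Nup98 and Nup62 on chromosome 7 were lower, at -0.24 ± 0.12 and -0.22 ± 0.12 in thymic lymphomas and at 0.11 ± 0.13 and 0.13 ± 0.12 in sarcomas, as were Nup153 on chromosome 13 (-0.41 ± 0.22 and -0.09 ± 0.04) and Nup210 on chromosome 6 (-0.28 ± 0.09 and -0.04 ± 0.05). Among the partners and co-lesions 2 of 17 were higher and 7 lower, and with centring 2 and 4. The higher ones were Cdkn2a and Cdkn2b, neighbours on chromosome 4 that were each at 0.25 ± 0.15 and -0.03 ± 0.06. The lower ones included Cnot3 on chromosome 7 (-0.23 ± 0.13 and 0.12 ± 0.12), Dek, a partner of NUP214 in human leukaemia, on chromosome 13 (-0.41 ± 0.22 and -0.09 ± 0.04) and Hoxa9 and Hoxa10 on chromosome 6 (-0.28 ± 0.09 and -0.04 ± 0.05). In T-cell receptor signalling Lck was higher (0.30 ± 0.17 and 0.01 ± 0.05) and Lat lower (-0.28 ± 0.17 and 0.11 ± 0.13), of 10 genes. Adjusted permutation p-values of the genes named here other than Crkl ran from 0.000178 to 0.00149, and with centring from 0.0011 to 0.0199. Genes on 1 chromosome share segments and are not independent.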

How the data were processed

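Exome libraries of 24 tumours were processed by the authors into 1 segment table each. The submitters' processing notes list GATK 4.1.0.0, BWA 0.7.17 and Trim Galore 0.6.5 and the build GRCm38, without roles. Per the file headers, the deposited values are a segment mean, read as a log2 copy ratio from its negative values and from chromosome X, and a number of markers. Chromosome X means ran from -0.92 in AD sarcoma 4 to 1.89 in RP thymic lymphoma 4, with others in between. The base of the logarithm is therefore inferred and not stated. The comparison DNA, centring and read depth were not given in the sources used here, so precision rests on the 24 tumours, and normal cells pull values towards 0. Thymic lymphomas had 204845 to 204849 autosomal markers where AD and 204917 to 204922 where RP. AD sarcomas had 205075 to 205076 and RP sarcomas 205073 to 205074, so processing and group cannot be told apart.

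Groups came from the genotype and tissue labels, and replicates were numbered in accession order. Genes took the overlap-weighted mean of their segments, or the nearest segment where none overlapped. Named genes were Abl1, Nup214, genes at the edges of the gain, list genes past the test or past a log2 of 1, at most 4 a list and direction, and the 3 most similar genes. The list genes named for RP thymic lymphoma 6 and the genes of the interval were chosen after their values were seen, as was Sfxn1 there. The members and lists were chosen with earlier results of these data known. Chromosome 2 was tested by design but is described only, since the rule for the genes uses it. Gene tests were two-sided exact permutation tests between genotypes and 100000 resamples within genotype between tumour types, with Benjamini-Hochberg adjustment and a threshold of 0.05, checked on simulated data. Python 3.11.15, numpy 2.4.6, pandas 2.3.3, limma 3.58.1 and matplotlib 3.10.9 were used. Results for 2 genes are not reported here. Chromosome X was used for the log base, and the segment and marker totals of each tumour count all chromosomes.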

Additional observations from a re-analysis of the deposited data

Results flagged for a closer look

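Abl1 and Nup214 in RP thymic lymphoma 6 stood apart from the other 6 tumours of the group, at 1.54 and 1.81, and also after subtraction of the chromosome 2 median, at 1.72 and 1.99. In AD thymic lymphoma 4 both genes stood at 0.17 while the other 6 AD thymic lymphomas lay below 0, and the chromosome 2 median of that tumour was 0.11. In AD sarcoma 4 both genes lay 0.0012 above the chromosome 2 median while the other 4 AD sarcomas were at 0, a distance too small to be of use. The values of RP thymic lymphoma 6 are those that chose the genes, so their distance from the group is a description. Of 20 groups tested for an outlier 8 were flagged, where chance alone marks about 1 in 20 groups. The flags are not independent, as both genes share their segments. Distances from the chromosome 2 median are often tied at 0, where a single other value is flagged however small. The chance rate does not hold for those distances. Causes were not tested.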

How the results depend on the processing

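The gain of both genes in RP thymic lymphoma 6 was called at cutoffs of 0.3 and 0.5, against the chromosome 2 median and from the segment with the largest overlap. At a cutoff of 0.2 the number of tumours with Abl1 gained was 2, and likewise 2 for Nup214. Loss was called in 1 tumour for each gene, in 5 at a cutoff of 0.2, and in 0 at a cutoff of 0.5 or against the chromosome 2 median. For chromosome 2 outside the interval, thymic lymphoma minus sarcoma was -0.0374, and 0.0512 with centring, and the cause was not tested. With 1 tumour left out the differences ran from -0.19 to -0.11 for AD minus RP thymic lymphomas, from 0.0057 to 0.038 for AD minus RP sarcomas and from -0.06 to -0.02 between tumour types. Between tumour types 8224 genes passed, 14.3% of them higher, and with centring 4515 passed, 32.2% of them higher; limma gave 8207. Centring lowered the difference of Crkl to -0.50 (adjusted p = 0.12), and leaving out RP sarcomas 3 and 5, chosen after seeing the data, gave -0.16 (adjusted p = 0.369). Replicate numbers only follow the order of the labels and pair no tumours. The compared tumours carry different animal numbers in their labels, so no paired analysis between groups was possible. Ear DNA that shares an animal number with some of the tumours was not analysed here. Markers limit the edges: the proximal edge is known to 64.3 kb and the distal edge to 10.8 kb.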
